A study of Mus musculus with 6 samples.

Results

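Integrins and leukocyte adhesion molecules were examined in mouse leukaemia cells with and without induced loss of Chaf1b, a gene for part of CAF-1, the complex that deposits histones behind the replication fork. Members were chosen by gene symbol: names starting with Itg that denote integrin chains and related symbols, Icam genes, Vcam1, selectin genes, Selplg, Pecam1, Cd44, Jam genes, F11r and Esam. Earlier results of these data were known when this choice was made. The choice gave 46 of the 35869 genes listed in every library: 18 integrin alpha chains, 9 beta chains, 10 immunoglobulin-type molecules, selectins and their ligand gene Selplg, Cd44, and 4 symbols that share the Itg prefix but encode no integrin chain (Itgb3bp, Itgb1bp1, Itgb1bp2 and Itgbl1).

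The cells were retroviral MLL-AF9 acute myeloid leukaemia cells carrying floxed Chaf1b alleles and CreERT2, a recombinase released by an oestrogen receptor ligand. They were grown with stem cell factor (100 ng/mL), IL6 (50 ng/mL) and IL3 (20 ng/mL). For the 3 KO libraries the cells had received β-estradiol, for the 3 WT libraries the same floxed CreERT2 cells had received ethanol vehicle, and polyadenylated RNA was taken at 48 h. No WT culture had the ligand, so ligand and deletion cannot be told apart. Whether the libraries came from 1 clone or several, and whether replicates were separate cultures, is not stated in the labels, so p-values measure only the spread between these libraries, and that spread may be technical.

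Integrins are heterodimers of an alpha and a beta chain that bind matrix and other cells after activation from inside the cell. On leukocytes the β2 integrins bind Icam molecules, while α4β1 binds Vcam1 and fibronectin. Selectins support rolling through sugar-bearing ligands such as PSGL-1 (Selplg), and junctional adhesion molecules (F11r, Jam2, Jam3) bind themselves, one another and leukocyte integrins. Cd44 is the main receptor for hyaluronan.

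Values are TPM, a length-corrected unit of transcript abundance in which levels of different genes can be compared within a library. TPM keeps no record of sequencing depth, so depth and counting error are unknown. The libraries fit their labels for the targeted gene: Chaf1b was at 17.7, 14.4 and 14.2 TPM in KO replicates 1, 2 and 3 and at 48.6, 49.0 and 50.6 TPM in WT replicates 1, 2 and 3. All 10 markers of the labelled immature myeloid type were tested and above 0 in every library, and 3 were called higher in KO and 1 lower (limma adjusted p under 0.05 over all tested genes). Mpo, the granule enzyme of promyelocytes, was at 1018, 2311 and 2233 TPM in KO and 19.4, 127.6 and 83.8 TPM in WT replicates 1, 2 and 3 (log2 fold change 4.84, limma adjusted p = 0.015). Elane and Cebpa were called higher by 1.22 and 0.31 on the log2 scale (limma adjusted p = 0.013 and 0.042), and Hoxa9 lower by -0.29 (0.029). Ptprc, Kit, Cd34, Meis1, Spi1 and Flt3 were not called. The part of these shifts in the adhesion results was not tested. KO replicate 1 and WT replicate 1 stood apart from the other 2 libraries of their groups: over the log2(TPM + 1) of 13575 genes, replicates 2 and 3 correlated at r = 0.998 in either group, against 0.991 for replicates 1 and 2 of KO and 0.984 for those of WT. Results are therefore also given without these libraries. As they were left out for standing apart, the libraries that remain in their group agree closely and the spread is smaller. More calls can follow from this choice alone, so the calls of those runs are descriptive.

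Of the 46 genes, 29 reached 1 TPM in at least 3 of the 6 libraries and were tested with limma on log2(TPM + 1) among all 13575 genes that passed this filter. A gene is said to rise, fall or be called where its Benjamini-Hochberg adjusted p over all these genes was under 0.05. In KO, 6 were called higher (Vcam1, F11r, Jam3, Itgal, Itga1 and Itgb3bp) and 1 lower (Itga6), beside 12.9% of all tested genes called higher and 6.11% called lower. The share called in either direction was 24.1% of these 29 genes against 19.0% of all tested genes, which is near the background. No overlap between KO and WT was seen for 14 of the 29 (48.3%), 11 higher and 3 lower, against 42.8% of all tested genes (23.4% higher and 19.5% lower). The median log2 fold change was 0.14 over the 29 and 0.01 over all tested genes. Quantile normalization gave 5 higher and 3 lower, against 10.1% and 11.7% of all tested genes, and median-of-ratios scaling gave 6 and 2, against 12.3% and 11.9%.

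**Figure D1:**
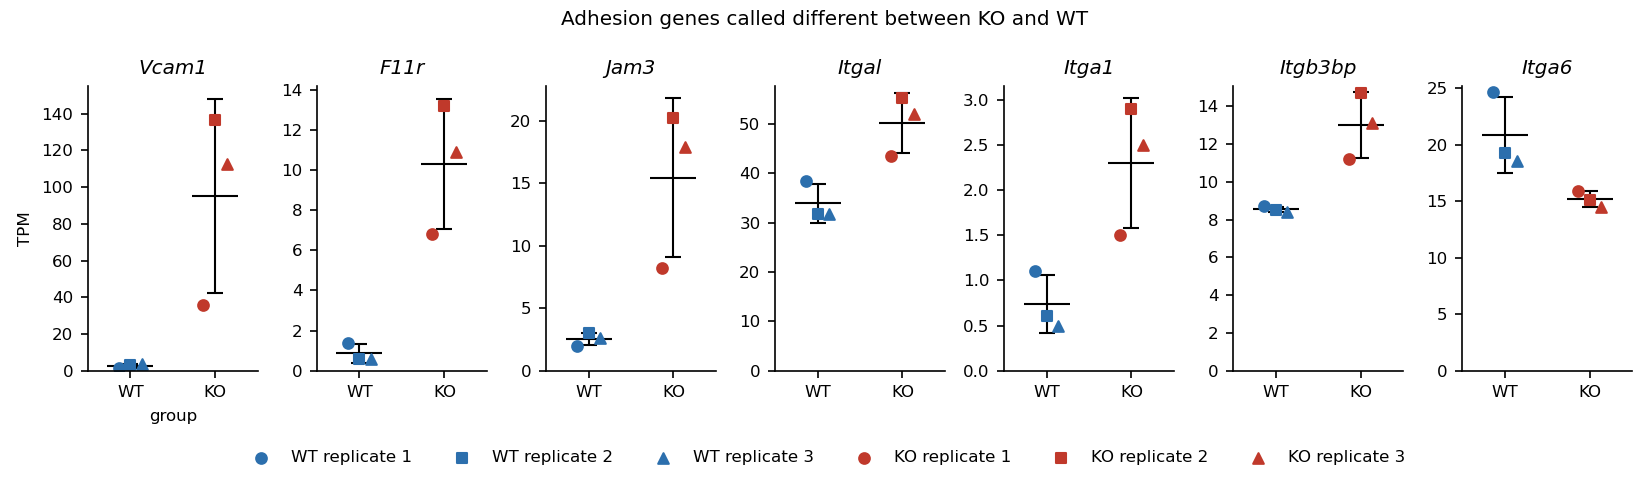
TPM of the 7 genes called different between KO and WT, with 1 panel per gene on its own linear axis starting at 0. Points are single libraries (circle, square and triangle for replicates 1, 2 and 3), horizontal bars the mean of 3 libraries and error bars 1 SD. KO replicate 1 is the lowest KO library for all 6 genes that rose.

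The counts depended on single libraries. No member was called in limma without KO replicate 3, WT replicate 2 or WT replicate 3. In these runs, in this order, 9, 12 and 11 of the 29 had an unadjusted p under 0.05. Of all tested genes, the same runs called 0, 23 and 14 higher and 0, 2 and 1 lower. Without KO replicate 2, 1 member (F11r) was called, beside 106 higher and 3 lower among all tested genes. Calls were thus lost across all tested genes, not only among these 29. Without WT replicate 1 the calls were 13 higher and 2 lower, against 21.6% and 14.2% of all tested genes, and without KO replicate 1 they were 10 and 2, against 15.2% and 11.9%. With replicate 1 of both groups left out there were 17 higher and 6 lower (58.6% and 20.7% of the 29), against 28.4% and 27.3% of all tested genes, and 27 did not overlap, against 80.3%.

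The largest rises were in the immunoglobulin-type group. Vcam1 (chromosome 3, 116110020 to 116129688 in mm10), the ligand of α4β1 that is best known from activated endothelium and bone marrow stroma and macrophages, was at 36.0, 136.8 and 112.6 TPM in KO replicates 1, 2 and 3. Its WT values were 1.4, 2.9 and 3.4 TPM. Every KO library was above every WT library, and KO replicate 1 lay well below the other KO libraries. The mean rose from 2.57 ± 1.04 to 95.1 ± 52.6 TPM (SD, n = 3), a ratio of 37.1; on the log2 scale the change was 4.59 (SE 0.52, limma adjusted p = 0.012). Vcam1 made up 14.7%, 35.8% and 32.3% of the summed TPM of the 10 immunoglobulin-type genes in KO replicates 1, 2 and 3, and 0.626%, 1.55% and 1.78% in WT.

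F11r (chromosome 1, 171437561 to 171464593), which encodes JAM-A, a molecule of tight junctions, platelets and leukocytes, was at 6.8, 13.2 and 10.9 TPM in KO and 1.4, 0.6 and 0.6 TPM in WT replicates 1, 2 and 3. The groups did not overlap, and the mean rose from 0.867 ± 0.462 to 10.3 ± 3.24 TPM (SD, n = 3), a log2 fold change of 2.58 (SE 0.26, limma adjusted p = 0.011). Jam3 (chromosome 9, 27097384 to 27155421), which encodes JAM-C, a ligand of the β2 integrin Mac-1, was at 8.2, 20.2 and 17.9 TPM in KO and 2.0, 3.0 and 2.6 TPM in WT. It too had no overlap, and the mean rose from 2.53 ± 0.50 to 15.4 ± 6.37 TPM (SD, n = 3), by 2.14 on the log2 scale (SE 0.32, limma adjusted p = 0.015). Jam2, the remaining member of the family, stayed under the 1 TPM filter at 0.5, 0.6 and 0.6 TPM in KO and 0.3, 0.2 and 0.2 TPM in WT. Summed over the 3 genes, the family stood at 15.5, 34.0 and 29.4 TPM in KO and 3.7, 3.8 and 3.4 TPM in WT replicates 1, 2 and 3. In WT replicates 2 and 3 the F11r level was 0.20 and 0.231 times that of Jam3, and in WT replicate 1 and the KO libraries it was 0.609 to 0.829 times.

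The calls for these genes were lost with some libraries left out, while the direction held. Without KO replicate 3 the adjusted p was 0.090 for Vcam1, 0.090 for F11r and 0.091 for Jam3. Without WT replicate 2 it was 0.056, 0.056 and 0.061, and without WT replicate 3 it was 0.057, 0.057 and 0.064. Without KO replicate 2 it was 0.051 for Vcam1 and 0.062 for Jam3, and F11r was still called at 0.048. Over all 15 alternatives the log2 fold change lay between 3.55 and 5.18 for Vcam1, between 1.36 and 3.47 for F11r and between 1.39 and 2.51 for Jam3. The lowest value of each came with a pseudocount of 5 TPM.

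The genes next to the 3 loci did not move with them in size. Extl2 and Cdc14a, the nearest tested genes on either side of Vcam1, had log2 fold changes of 0.30 and 0.14 (limma adjusted p = 0.053 and 0.20). Beside F11r, Tstd1 had a log2 fold change of 0.04 (limma adjusted p = 0.86), while Alyref2 was called higher, by 0.35 on the log2 scale (0.029). Ncapd3, a condensin gene whose end lies 862 bp from Jam3, was called higher by 0.27 on the log2 scale (limma adjusted p = 0.042). Alyref2 and Ncapd3 were not called without KO replicate 2, KO replicate 3, WT replicate 2 or WT replicate 3. An exon of Vcam1 overlaps the gene model Gm43109, and an exon of Jam3 overlaps Gm48796, both on the opposite strand in GENCODE M21; libraries were stranded, but the strand setting of the counting is not stated.

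Endothelial and platelet genes were measured beside these because Vcam1, F11r and Jam3 are also expressed by those cells. Of 8 endothelial markers none passed the filter: Kdr, Tek and Emcn were at 0 in every library, Cdh5 was at 0.5 to 1.5 TPM in KO and 0 in WT, and the list summed to 2.0, 4.5 and 3.9 TPM in KO and 0.5, 0.6 and 0.5 TPM in WT replicates 1, 2 and 3. Of 9 megakaryocyte and platelet markers 2 were tested and both rose, Pf4 and Gp1bb. The list summed to 20.7, 43.1 and 35.4 TPM in KO and 6.5, 3.4 and 4.2 TPM in WT, while Gp6 was at 0 in every library and Gp5 between 0.1 and 0.4 TPM. Of 9 monocyte and macrophage markers 6 were tested and 3 rose (Fcgr1, Mpeg1 and Ly6c2); Csf1r was between 0.4 and 1.4 TPM in all 6 libraries. The stromal list rose for Acta2 and Col1a1, with Lepr at 0 and Cxcl12 at or under 0.1 TPM. Called higher were also 4 of 5 tested erythroid, 2 of 2 B cell and 2 of 3 dendritic cell markers. So were 2 of 5 mast cell and basophil markers and 1 of 1 for T and NK cells. None of these was called lower, beside 12.9% of all tested genes called higher and 6.11% called lower. Marker rises were thus not limited to the lists above. The part of these cell types in the rises of Vcam1, F11r and Jam3 was not tested. In bulk RNA, more cells of a type and more RNA per cell cannot be told apart.

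The remaining immunoglobulin-type genes changed less. Icam1, the ligand of LFA-1 and Mac-1, was at 77.1, 81.7 and 80.2 TPM in KO and 92.8, 67.2 and 71.1 TPM in WT replicates 1, 2 and 3. WT replicate 1 was the highest of all 6 libraries, so the groups overlapped (log2 fold change 0.06, 95% interval -0.23 to 0.35, limma adjusted p = 0.74). Icam2 was at 45.6, 53.4 and 53.8 TPM in KO and 41.6, 47.0 and 45.0 TPM in WT (0.19, limma adjusted p = 0.15). Pecam1, the homophilic adhesion molecule CD31, was at 63.4, 66.2 and 64.4 TPM in KO and 79.1, 60.8 and 62.3 TPM in WT (-0.05, limma adjusted p = 0.77). Icam4, the red cell ligand of leukocyte integrins, was at 5.1, 8.0 and 6.8 TPM in KO and 3.7, 4.3 and 5.0 TPM in WT, with no overlap but no call (0.51, limma adjusted p = 0.075).

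Icam1, Icam4 and Icam5 lie side by side on chromosome 9, between 21015940 and 21039036. Icam5, best known from neurons, was at 1.8, 1.6 and 1.5 TPM in KO and 1.3, 1.1 and 0.8 TPM in WT replicates 1, 2 and 3 (log2 fold change 0.36, limma adjusted p = 0.080, turning to -0.01 under quantile normalization). Exons of the model Gm47079 overlap all 3 genes on the opposite strand. Without WT replicate 1, Icam1 was called higher by 0.20 on the log2 scale (limma adjusted p = 0.031) and Icam5 by 0.44 (0.033). Without KO replicate 1, Icam4 was called higher by 0.66 (limma adjusted p = 0.023) and Icam2 by 0.26 (0.041). Esam, the endothelial member, was at or under 0.1 TPM in every library.

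**Figure D2:**
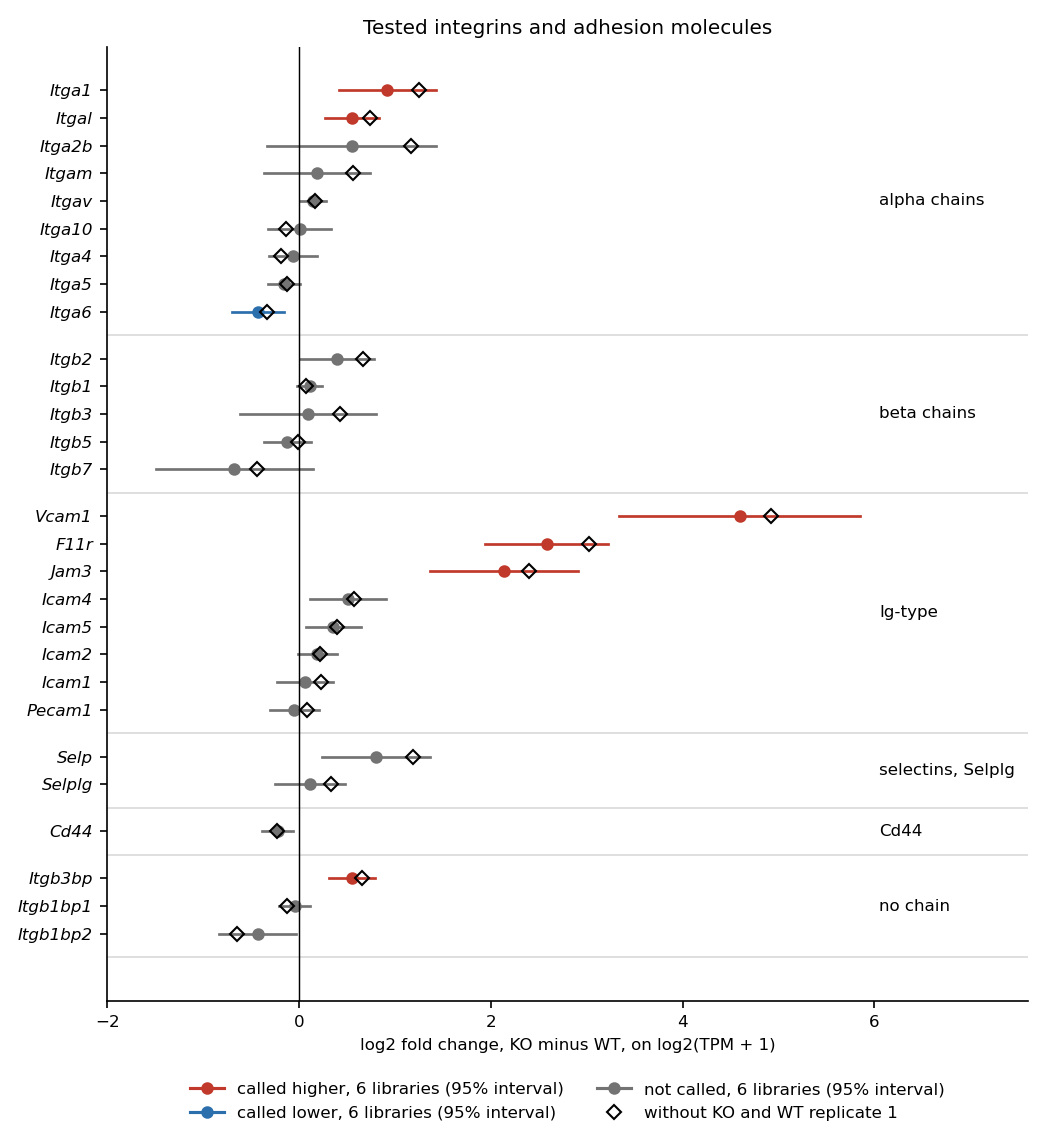
Log2 fold change (KO minus WT, on log2(TPM + 1)) of tested genes, by molecule type. Filled points and bars are the estimates and 95% intervals from 6 libraries, red where called higher, blue where called lower and grey where not called, and open diamonds are the estimates without KO replicate 1 and WT replicate 1. Vcam1, F11r and Jam3 lie above 2, while Itga6, at -0.43, is the called gene below 0.

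Among integrins, the chains present at high levels in WT included Itgam and Itgb2, the chains of Mac-1. The alpha chains led with Itgam (167 ± 55.9 TPM in WT; SD, n = 3) and Itga4 (93.4 ± 13.0 TPM), and the beta chains with Itgb1 (209 ± 11.9 TPM) and Itgb2 (154 ± 30.5 TPM). Next came Itgb5 at 74.1 ± 10.6 TPM, Itga5 at 40.5 ± 3.2 TPM, Itgb7 at 36.6 ± 19.2 TPM and Itgal at 34.0 ± 3.93 TPM. Itga5 was above Itgal in every WT library (44.1, 39.6 and 37.9 against 38.5, 31.7 and 31.7 TPM in replicates 1, 2 and 3). Itgb7, at 58.7, 24.0 and 27.1 TPM, was above both in WT replicate 1 and below both in replicates 2 and 3. Its place in this order is therefore not settled. Of the 18 alpha chains 9 were tested, with 2 called higher and 1 lower, and of the 9 beta chains 5 were tested, with none called. In this replicated limma test, 1 of the 5 tested beta chains (Itgb2) had an unadjusted p under 0.05.

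Of the β2 integrin genes, Itgal rose and its partner chain was not called. Itgal (chromosome 7, 127296139 to 127335137), the alpha chain of LFA-1, was at 43.5, 55.3 and 52.1 TPM in KO and 38.5, 31.7 and 31.7 TPM in WT replicates 1, 2 and 3. All KO libraries were above all WT libraries, and the mean rose from 34.0 ± 3.93 to 50.3 ± 6.10 TPM (SD, n = 3), by 0.55 on the log2 scale (SE 0.12, limma adjusted p = 0.029). The call was lost when any one of 4 libraries was left out: KO replicate 2 (limma adjusted p = 0.12), KO replicate 3 (0.13), WT replicate 2 (0.098) and WT replicate 3 (0.10).

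Itgam (128062640 to 128118491 on the same chromosome), the alpha chain of Mac-1 on neutrophils and monocytes, was at 157.9, 207.2 and 190.9 TPM in KO and 231.7, 133.3 and 136.4 TPM in WT. WT replicate 1 was above every KO library and WT replicates 2 and 3 were below every one (log2 fold change 0.19, 95% interval -0.37 to 0.74, limma adjusted p = 0.58). Itgb2, the shared β2 chain, was at 170.7, 220.2 and 213.2 TPM in KO and 188.7, 135.4 and 136.4 TPM in WT (0.40, 95% interval 0.01 to 0.78, limma adjusted p = 0.12). Without WT replicate 1, Itgam was called higher by 0.45 (limma adjusted p = 0.039) and Itgb2 by 0.55 (0.026) on the log2 scale. A same-strand gene model, Gm49368, shares exon sequence with Itgam in GENCODE M21, so how reads were split between the models is uncertain.

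Neutrophil markers were measured beside the β2 genes, since mature neutrophils carry much Mac-1. The list of 9 summed to 393, 955 and 861 TPM in KO and 274, 69.1 and 87.8 TPM in WT replicates 1, 2 and 3, so WT replicate 1 was above WT replicates 2 and 3 for the list as for Itgam, Itgal and Itgb2. Of these 9, 6 were tested and 3 rose, S100a8, S100a9 and Camp. In WT replicates 1, 2 and 3, S100a8 was at 50, 37.2 and 47.6 TPM and Camp at 2.6, 2.3 and 2.4 TPM. Ly6g, Ngp and Cxcr2 were not called. In WT, Ly6g was at 62.0, 1.9 and 3.0 TPM, Ngp at 109.5, 14.6 and 21.5 TPM and Cxcr2 at 21.4, 0.5 and 0.4 TPM. In KO they were at 13.8, 26.4 and 21.8, at 31.5, 61.8 and 58.6, and at 8.4, 23.8 and 19.6 TPM. Mmp8, under the filter, was at 7.4, 0.1 and 0 TPM in WT and 0.1, 0.4 and 0.7 TPM in KO. The list sum thus mixes markers with unlike patterns. The part of these cells in the β2 values was not tested. Itgax and Itgad, which follow Itgam on chromosome 7, were at or under 0.3 TPM in every library. Itgb2l, a β2-like gene of mouse neutrophils on chromosome 16, was at 0.6, 1.1 and 1.1 TPM in KO and at 0.1 TPM in each WT library; it stayed under the filter, and the values are rounded to 1 decimal.

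The alpha chains summed to 374, 441 and 416 TPM in KO and 448, 354 and 348 TPM in WT replicates 1, 2 and 3. The β2 partner chains (Itgal, Itgam, Itgax and Itgad) were 54.0%, 59.6% and 58.5% of this sum in KO, and 60.4%, 46.8% and 48.3% in WT, so WT replicate 1 exceeded even the KO libraries. Per Itgb2 transcript, these partner chains were at 1.18, 1.19 and 1.14 in KO and 1.43, 1.22 and 1.23 in WT. The ratio of Itgam to Itgal was 3.63, 3.75 and 3.66 in KO and 6.02, 4.21 and 4.30 in WT, so the KO libraries were all below the WT libraries and closer to one another.

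**Figure D3:**
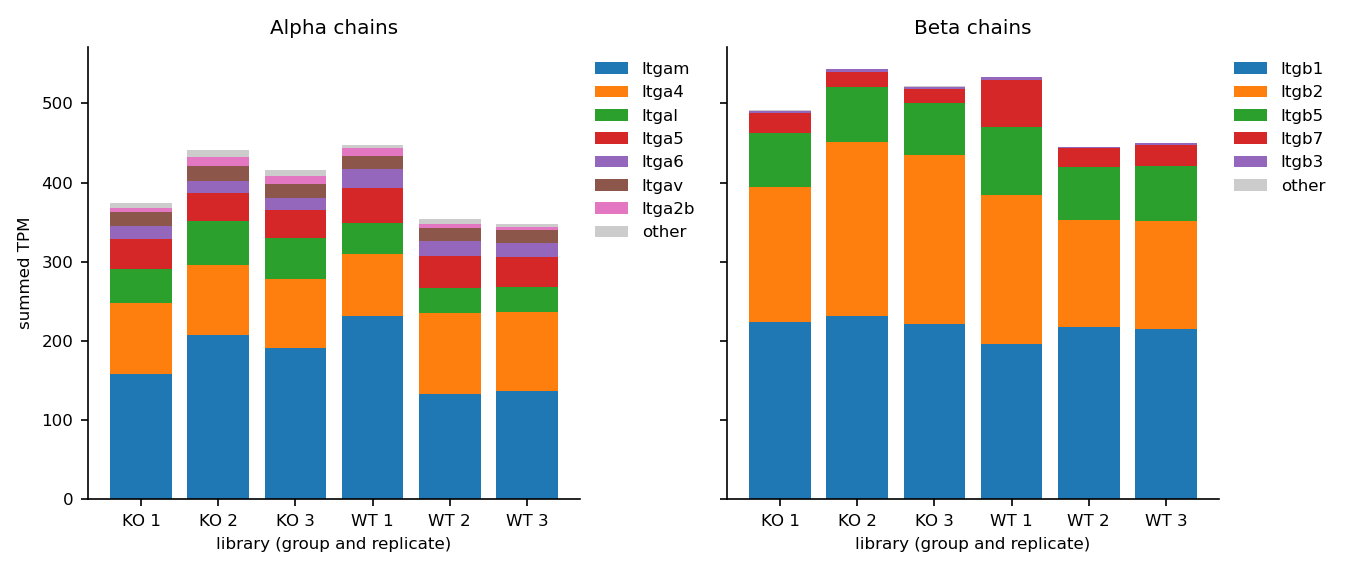
Summed TPM of the integrin alpha chains (left) and beta chains (right) in each library, stacked by gene, with the axis starting at 0. In WT replicate 1 the Itgam segment (231.7 TPM) and the Itgb7 segment (58.7 TPM) are larger than in the other 5 libraries.

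The receptors of Vcam1 were not called with all 6 libraries. Itga4 was at 89.5, 88.9 and 87.5 TPM in KO and 78.4, 102.3 and 99.4 TPM in WT replicates 1, 2 and 3 (log2 fold change -0.06, 95% interval -0.31 to 0.19, limma adjusted p = 0.68). Its partner Itgb1 was at 223.8, 231.3 and 221.7 TPM in KO and 195.7, 217.3 and 215.1 TPM in WT (0.11, 95% interval -0.02 to 0.24, limma adjusted p = 0.19). The KO libraries of Itgb1 all lay above the WT libraries, by a small margin. Itgb7, which pairs with Itga4 on gut-homing cells and mast cell precursors, was at 25.7, 19.3 and 17.9 TPM in KO and 58.7, 24.0 and 27.1 TPM in WT (-0.68, limma adjusted p = 0.19). Without WT replicate 1, Itga4 was called lower by a log2 fold change of -0.18 (limma adjusted p = 0.024), while Itgb7 stood at -0.29 (0.20). With replicate 1 of both groups left out, Itga4 (limma adjusted p = 0.0093) and Itgb7 (0.014) were called lower, as were Itga5 and Itga6. These were 4 of 5 tested β1 and β7 integrin genes, beside 27.3% of all tested genes, and Itgb1 was not called. All 3 tested β2 genes were called higher in that run, beside 28.4% of all tested genes.

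Itga6 (chromosome 2, 71786886 to 71858427), a laminin-binding chain of stem and progenitor cells, was the only tested member called lower with all 6 libraries. It was at 15.9, 15.1 and 14.5 TPM in KO and 24.7, 19.3 and 18.6 TPM in WT replicates 1, 2 and 3. The groups did not overlap, WT replicate 1 was the highest, and the mean fell from 20.9 ± 3.34 to 15.2 ± 0.702 TPM (SD, n = 3), which is -0.43 on the log2 scale (SE 0.11, limma adjusted p = 0.047). The call lay near the threshold: it was lost without the filter on low values (0.065), with a pseudocount of 5 TPM (0.050), and without KO replicate 1 (0.060), KO replicate 2 (0.16), KO replicate 3 (0.17), WT replicate 2 (0.10) or WT replicate 3 (0.086). It held without WT replicate 1, at -0.30 (limma adjusted p = 0.022).

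Itga5, the fibronectin receptor chain, was at 37.7, 35.5 and 35.2 TPM in KO and 44.1, 39.6 and 37.9 TPM in WT, lower in every KO library without a call (log2 fold change -0.16, limma adjusted p = 0.15). It was called lower with replicate 1 of both groups left out (limma adjusted p = 0.042). Itgav, which pairs with several beta chains to bind vitronectin and latent TGF-β, was at 17.7, 19.2 and 17.8 TPM in KO and 16.5, 16.4 and 16.3 TPM in WT, higher in every KO library without a call (0.14, limma adjusted p = 0.11). Its partner Itgb5 was at 68.2, 69.4 and 65.3 TPM in KO and 86.3, 66.7 and 69.4 TPM in WT (-0.12, limma adjusted p = 0.42). Itgb6 and Itgb8, further partners of Itgav, were listed at 0 in every library.

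The platelet integrin genes overlapped between groups. Itga2b, the αIIb chain of megakaryocytes and early progenitors, was at 5.4, 11.4 and 10.7 TPM in KO and 9.2, 5.3 and 3.6 TPM in WT replicates 1, 2 and 3 (log2 fold change 0.55, 95% interval -0.33 to 1.43, limma adjusted p = 0.31). Its partner Itgb3 was at 2.6, 2.7 and 2.3 TPM in KO and 4.4, 1.7 and 1.5 TPM in WT (0.09, limma adjusted p = 0.85; -0.22 under quantile normalization). In both genes WT replicate 1 was above WT replicates 2 and 3. Without WT replicate 1, Itgb3 was called higher by 0.44 (limma adjusted p = 0.024), and with KO replicate 1 left out as well Itga2b was called higher by 1.16 (0.0088).

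Itga1 (chromosome 13, 114958079 to 115101964), the collagen-binding chain of VLA-1, rose from a low level. It was at 1.5, 2.9 and 2.5 TPM in KO and 1.1, 0.6 and 0.5 TPM in WT, with no overlap, and the mean went from 0.733 ± 0.321 to 2.30 ± 0.721 TPM (SD, n = 3), by 0.92 on the log2 scale (SE 0.21, limma adjusted p = 0.033). The call was lost under quantile normalization (0.58, limma adjusted p = 0.062) and without KO replicate 2 (0.13), KO replicate 3 (0.14), WT replicate 2 (0.11) or WT replicate 3 (0.11). Pelo, a ribosome rescue factor gene nested in Itga1 on the same strand, was called lower (89.0 ± 1.93 to 69.6 ± 8.33 TPM; SD, n = 3; limma adjusted p = 0.039). A same-strand model, Gm49395, shares exon sequence with Itga1, so its value is uncertain. Itga10, another collagen-binding chain, was at 3.5, 3.4 and 3.3 TPM in KO and 2.7, 4.3 and 3.3 TPM in WT (0.00, limma adjusted p = 0.98; -0.26 under quantile normalization and -0.02 under median-of-ratios scaling). Itga10 shares exon sequence with the same-strand model Gm42957, so its value is uncertain too.

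Promoter sequence was available for 29 of the 46 genes in the RefSeq-based table (GRCm38.p6, the same assembly as mm10). The 250 bases upstream of the start are shown for F11r and Itga1, which rose, and for Itgb1 and Itgam, the most abundant beta and alpha chains, which were not called. They were searched on both strands for GATAA (the GATA core), GAGGAA (letters of the PU.1 site, a myeloid ETS factor) and the NF-κB motif, the last by its usual degenerate consensus. Capitals mark GAGGAA, or TTCCTC where it lies on the other strand; the other motifs have no match in these 4 windows, and no matches overlap. The bases are 5′ to 3′ on the strand of the gene.
F11r, chr1:171437311-171437560, plus strand: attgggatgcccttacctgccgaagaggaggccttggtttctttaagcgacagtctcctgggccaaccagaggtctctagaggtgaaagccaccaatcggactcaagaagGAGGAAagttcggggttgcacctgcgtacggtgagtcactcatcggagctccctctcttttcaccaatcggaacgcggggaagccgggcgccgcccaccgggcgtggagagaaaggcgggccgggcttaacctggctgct
Itga1, chr13:115101965-115102214, minus strand: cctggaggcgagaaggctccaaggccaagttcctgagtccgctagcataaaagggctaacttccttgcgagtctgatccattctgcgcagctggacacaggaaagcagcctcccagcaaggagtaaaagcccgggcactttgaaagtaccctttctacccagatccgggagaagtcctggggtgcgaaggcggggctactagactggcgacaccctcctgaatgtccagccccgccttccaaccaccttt
Itgb1, chr8:128685404-128685653, plus strand: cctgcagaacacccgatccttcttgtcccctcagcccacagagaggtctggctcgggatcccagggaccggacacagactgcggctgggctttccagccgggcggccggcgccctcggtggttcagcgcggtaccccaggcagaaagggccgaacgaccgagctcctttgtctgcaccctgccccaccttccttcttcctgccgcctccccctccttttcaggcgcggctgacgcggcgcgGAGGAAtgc
Itgam, chr7:128062390-128062639, plus strand: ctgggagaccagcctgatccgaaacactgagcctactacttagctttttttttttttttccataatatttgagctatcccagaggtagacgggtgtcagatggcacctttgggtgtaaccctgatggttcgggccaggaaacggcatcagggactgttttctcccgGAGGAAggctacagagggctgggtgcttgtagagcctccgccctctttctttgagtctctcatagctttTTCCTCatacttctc

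The match in F11r starts 140 bases before the start site and that in Itgb1 starts 9 bases before it. Itgam holds 2 matches, at 84 and 15 bases, and Itga1 holds none. Over the 31 windows of the 29 genes, GAGGAA was found in 12, GATAA in 5 and the NF-κB motif in 0. Among all 32851 windows of the same length in the table, 23.3% held GAGGAA, 22.6% GATAA and 3.90% the NF-κB motif. A match describes letters in the window and was not linked to binding, which these data do not measure. No window was available for Vcam1, Jam3, Itgal or Itga6. Itgb3bp, which also rose, has a window that is not shown. It holds GATAA at 183 bases and no match to the other motifs.

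Selplg and Selp were not called with all 6 libraries. Selplg, which encodes the selectin ligand PSGL-1, was at 244.2, 274.8 and 265.0 TPM in KO and 309.5, 212.9 and 214.4 TPM in WT replicates 1, 2 and 3 (log2 fold change 0.11, limma adjusted p = 0.63). WT replicate 1 was above every KO library and WT replicates 2 and 3 below every one. Selp, the P-selectin of platelets and endothelium, was at 3.0, 4.7 and 4.2 TPM in KO and 2.9, 1.3 and 1.5 TPM in WT, with no overlap (0.80, limma adjusted p = 0.059). Its exons overlap the models Gm16548 and Gm16587 on the opposite strand.

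The calls of both genes changed with the replicates numbered 1. Without WT replicate 1, Selp was called higher by 1.03 (limma adjusted p = 0.020) and Selplg by 0.29 (0.024) on the log2 scale. Without KO replicate 1, Selp was called higher by 0.95 (limma adjusted p = 0.046). Sele, the E-selectin of activated endothelium, lies near Selp on chromosome 1 and was at 0.3, 0.5 and 0.5 TPM in KO and 0.1, 0.2 and 0.1 TPM in WT.

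Cd44, the hyaluronan receptor, was at 12.3, 11.6 and 11 TPM in KO and 14.3, 13.8 and 13.1 TPM in WT replicates 1, 2 and 3. Every KO library was below every WT library, and the difference missed the threshold (log2 fold change -0.22, 95% interval -0.38 to -0.06, limma adjusted p = 0.062). It was called lower under quantile normalization (-0.29, limma adjusted p = 0.032), under median-of-ratios scaling (-0.26, 0.035) and without KO replicate 1 (-0.26, 0.045).

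Of the symbols that encode no integrin chain, Itgb3bp (chromosome 4, 99767406 to 99829215), a centromere protein also known as CENP-R, was at 11.2, 14.7 and 13.1 TPM in KO and 8.7, 8.5 and 8.4 TPM in WT replicates 1, 2 and 3. It rose with no overlap (log2 fold change 0.55, SE 0.10, limma adjusted p = 0.021), and the call was lost without KO replicate 2 (0.070), KO replicate 3 (0.11), WT replicate 2 (0.077) or WT replicate 3 (0.083). Exons of Itgb3bp overlap Pgm1 on the opposite strand. Itgb1bp1, a binder of the β1 tail that restrains activation, was at 21.0, 20.4 and 19.3 TPM in KO and 19.5, 22.2 and 21.2 TPM in WT (-0.05, limma adjusted p = 0.64). Itgb1bp2, a muscle chaperone, was at 2.1, 1.5 and 1.2 TPM in KO and 2.1, 3.1 and 2.3 TPM in WT (-0.43, limma adjusted p = 0.11); without KO replicate 1 it was called lower by -0.57 (0.048).

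**Figure D4:**
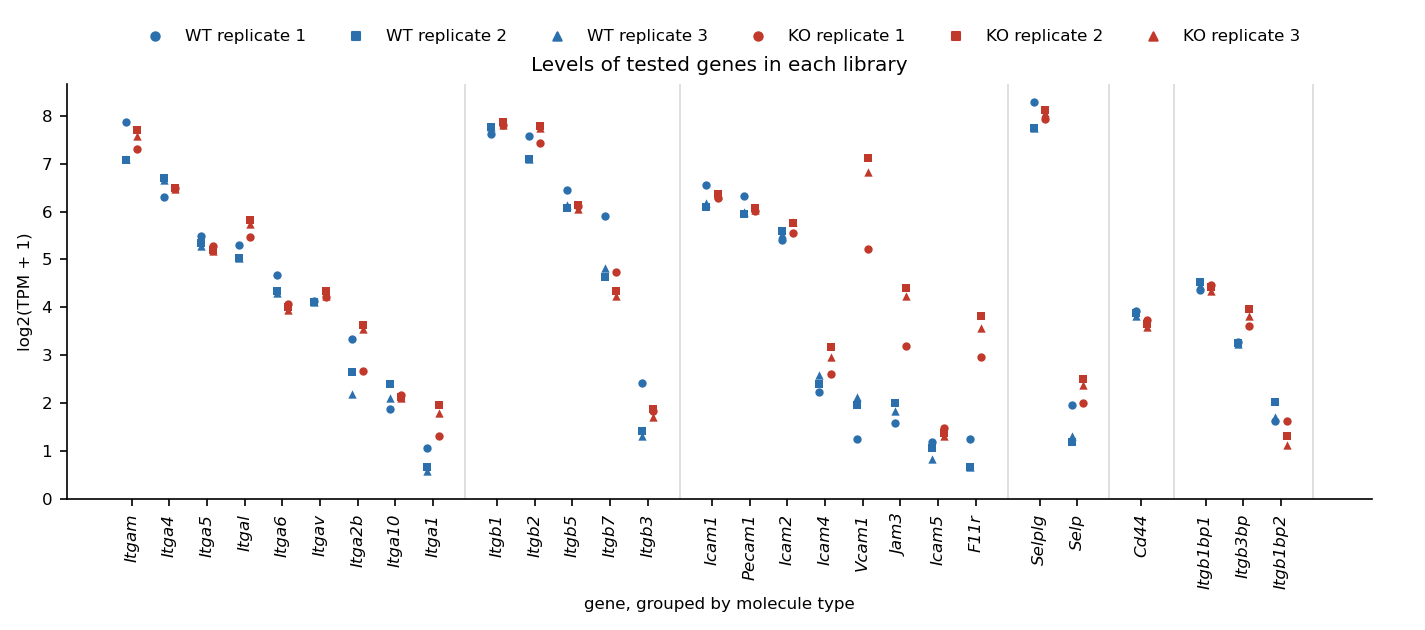
Log2(TPM + 1) of tested genes in each of the 6 libraries, grouped by molecule type and ordered by WT mean within each type; blue points are WT, red points KO, and the marker shape gives the replicate. WT replicate 1 is the highest of all 6 libraries for 10 genes, among them Itgam, Selplg and Itgb7.

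The other 17 members did not reach the filter and none exceeded 1.1 TPM in any library. Among them 3 (Itgb6, Itgb8 and Itgbl1) were at 0 throughout. Of the 14 above 0 in some library, all KO values lay above all WT values for 6 and below them for 0. Among the 9309 such genes of the whole series under the filter, the shares were 22.4% and 0.645%, so low genes in general lay above WT far more often than below it. The 6 were Sele, Jam2, Itgb2l, Itgae, Itga9 and Itga3. Itgae, the αE chain CD103 of intraepithelial lymphocytes, was at 0.4, 0.6 and 0.5 TPM in KO and 0.1, 0.2 and 0.2 TPM in WT replicates 1, 2 and 3. When no filter was applied, 43 members were tested and 12 were called higher and 0 lower, against 11.9% and 2.91% of 22884 genes. The 6 added calls were these same 6 genes, at low levels that are rounded to 1 decimal. Their differences ranged from Itga3, at 0.1 TPM in each KO library and 0 in WT, to Itgb2l, at 0.6, 1.1 and 1.1 TPM in KO and 0.1 TPM in each WT library.

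Genes that act with the adhesion molecules were compared through 5 lists. Of 19 tested adaptors of inside-out activation and integrin adhesion sites, 4 were higher and 0 lower, with a median log2 fold change of 0.10. Vcl, the actin linker vinculin, rose to 45.5 ± 3.10 TPM in KO from 35.2 ± 0.945 TPM in WT (SD, n = 3, limma adjusted p = 0.020), Flna, an actin crosslinker that binds beta chain tails, from 72.9 ± 2.77 to 86.6 ± 4.62 TPM (0.038), and Tln2, the less abundant talin, from 1.13 ± 0.321 to 2.57 ± 0.611 TPM (0.034). The fourth was Cytip, a cytohesin partner, with means of 47.2 ± 6.79 TPM in KO and of 34.6 ± 2.76 TPM in WT (0.049). Of 13 tested kinases and signalling adaptors 1 was higher and 0 lower: Vav3, a guanine nucleotide exchange factor, rose from 12.2 ± 0.265 to 15.8 ± 1.80 TPM (limma adjusted p = 0.046), a call lost without WT replicate 1 (0.053).

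Of 13 tested genes of selectin ligand synthesis 1 was higher and 0 lower. This was Fut7, the fucosyltransferase that completes the selectin-binding sugar, which stood at 9.5 ± 0.458 TPM in WT and 11.7 ± 0.551 TPM in KO (SD, n = 3, limma adjusted p = 0.037). Of 18 extracellular ligands 5 were tested and 3 were higher: Emilin1, a matrix ligand of α4 and α9 integrins, from 56.9 ± 8.57 to 96.3 ± 9.09 TPM (limma adjusted p = 0.018), Cdh1, the E-cadherin bound by αEβ7, from 0.333 ± 0.231 to 2.13 ± 0.896 TPM (0.028), and Spp1, which encodes osteopontin, from 1.33 ± 0.513 to 3.23 ± 0.751 TPM (0.034). Fn1, the fibronectin gene, was at or under 0.1 TPM in every library. Of 9 tested membrane linkers and sheddases 1 was lower and 0 higher: Rdx, which encodes the actin linker radixin, fell from 55.3 ± 1.12 to 40.0 ± 4.65 TPM (limma adjusted p = 0.022).

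These shares stand beside 12.9% of all tested genes called higher and 6.11% called lower, and the lists hold few genes. With replicate 1 of both groups left out, the calls were 9 higher and 3 lower for the adaptors, 6 and 0 for the kinases, 4 and 2 for selectin ligand synthesis, 3 and 0 for the ligands and 4 and 1 for linkers and sheddases, beside 28.4% and 27.3% of all tested genes. Each list gene named above as changed lost its call when any 1 of KO replicates 2 and 3 and WT replicates 2 and 3 was left out. In those runs, in this order, 106, 0, 23 and 14 of all tested genes were called higher and 3, 0, 2 and 1 lower. Tln2, Vav3, Fut7 and Spp1 were not called under quantile normalization.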

How the data were processed

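Polyadenylated RNA from 3 KO and 3 WT libraries was sequenced as stranded paired-end reads of 100 bp, per the labels' protocols. The submitters' processing notes name STAR 2.6.1e, featureCounts 1.6.2, Trim Galore 0.4.2 and cutadapt 1.9.1, with the build mm10. No annotation, strand setting or TPM step is given in the sources used here. The authors deposited TPM per gene symbol, rounded to 1 decimal. Only the header of WT replicate 1 mentions a replacement, without saying of what.

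Genes reaching 1 TPM in 3 or more of 6 libraries were compared as log2(TPM + 1) with limma 3.58.1 in R 4.3.3 (genotype only, eBayes with a trend, two-sided, Benjamini-Hochberg over all 13575 kept genes, threshold 0.05). The fold change understates changes of low genes. The fit was tested on simulated data. A gene that entered the counts is not reported here by itself, in the text or the plots. Gene positions are from RefSeq on GRCm38.p6, exon overlaps from GENCODE M21. Described gene by gene were members with a mean of at least 5 TPM in a group or a call, and several lower ones; of each pathway list, up to 3 called genes in the majority direction and up to 2 in the other, with Cytip, Fn1 and neighbouring genes named besides. The members, gene lists and alternatives were chosen with earlier results of these data known. Identical values in a pair of libraries were found for at most 8.48% of tested genes, so none was taken as a copy and all 6 libraries were counted. This highest share was that of WT replicates 2 and 3, against 2.65% and 2.86% for WT replicate 1 with each of them. It cannot show whether replicates were separate cultures.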

Additional observations from a re-analysis of the deposited data

How the results depend on the processing

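Of all genes tested, 1745 were called higher and 830 lower. The count of higher genes was 2730 without the filter on low values and 883 with a mean of at least 5 TPM, and the count of lower genes was 1586 under quantile normalization and 1614 under median-of-ratios scaling. Without replicate 1 of both groups there were 3859 higher and 3710 lower. Leaving out 1 library at a time gave 0 to 2927 higher and 0 to 1923 lower. Among the adhesion genes, calls higher were 12 with no filter and 17 without both replicates 1, and 0 to 13 with 1 library left out, against 6. Calls lower were 0 with a pseudocount of 5 TPM, 0 without the filter, 3 under quantile normalization, 2 under median-of-ratios scaling, 6 without both replicates 1 and 0 to 2 with 1 library left out, against 1. The count without overlap, 14 with all libraries, was 27 without both replicates 1 and 14 to 25 with 1 library left out. Without KO replicate 3 the log2 fold change of Chaf1b was -1.57 (limma adjusted p = 0.070), and over single libraries left out it lay between -1.72 and -1.57.

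KO and WT share replicate numbers, and whether the numbers pair the samples is not stated in the labels. Deviations from the group means correlated at -0.20, -0.15 and -0.16 for replicates 1, 2 and 3 across genes. For pairs of unlike number the values lay between -0.21 (KO replicate 2 with WT replicate 3) and 0.23 (KO replicate 1 with WT replicate 3). Deviations within groups of 3 are tied to one another, so these values cannot settle whether the samples were paired. With the replicate number as a block, 300 genes were higher and 33 lower, and 3 adhesion genes were higher (Vcam1, F11r and Jam3) and 0 lower.

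No called adhesion gene changed direction under any alternative run. Uncalled genes that did, by log2 fold change, were Itga4 (-0.18 to 0.0056 over single libraries left out), Icam1 (-0.028 to 0.20 likewise), Icam5 (-0.011 under quantile normalization), Pecam1 (-0.12 to 0.07 over single libraries, 0.084 without both replicates 1), Itgb3 (-0.22 under quantile normalization, -0.11 to 0.44 over single libraries) and Itga10 (-0.0014 with a pseudocount of 5 TPM, -0.26 under quantile normalization, -0.025 under median-of-ratios scaling, -0.13 without both replicates 1, -0.12 to 0.14 over single libraries). The cause of these differences was not tested. TPM gives no depth, so no counting limit could be set for genes near 0.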
